A study of Mus musculus with 7 samples.

Results

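The enzymes that write and erase histone methylation, together with the classical histone deacetylases (HDACs), were described in pancreatic islets of F2 male mice. A gene was taken as a member when its GENCODE M21 symbol begins with Kdm, Kmt, Setd or Hdac, or when it is Ezh1, Ezh2, Eed, Suz12, Ehmt1, Ehmt2, Suv39h1, Suv39h2, Dot1l or Nsd1. Kdm5c, Kdm5d and Kdm6a were left out. This gave 54 genes of 21899 in the files, of which 53 averaged 10 counts or more over both libraries and entered the comparison. The rule uses gene names and no measured value, although it was set with earlier results of these data known.

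The study asked whether prenatal androgen exposure leaves a trace in islets of descendants through the male line. On a C57BL/6J background, pregnant F0 dams were injected with dihydrotestosterone in late gestation (AE) or with the benzyl benzoate and corn oil vehicle alone (control). Their F1 sons received nothing further and were bred with unrelated wild-type females, and RNA was taken from islets of the F2 sons, which the labels call hyperandrogenism (here AE-F2) and control (control-F2). The only androgen given was that to the F0 dams while they carried the F1 sons, and both groups went through the same collagenase digestion and manual picking. The age of these mice and the number of animals behind a library are not given in the labels. The labels name 3 control and 4 hyperandrogenism samples. Control replicate 1 and AE replicate 4 were analysed, and the other 5 were not analysed here. With 1 library analysed per group there was no replicate check, no test was run, and every difference below is one between 2 libraries.

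Histone lysine methylation is written mostly by enzymes with a SET domain and erased by the flavin-dependent Kdm1 enzymes and by the Jumonji-domain demethylases. Methylation of H3K4 marks active promoters and enhancers, H3K27 methylation by Polycomb repressive complex 2 (PRC2) and H3K9 methylation mark silenced chromatin, and H3K36 and H3K79 methylation follow transcription. HDACs remove acetyl groups from histones, with class I enzymes working in nuclear corepressor complexes and class IIa enzymes shuttling between nucleus and cytoplasm. In islets, PRC2 and its opponents are known for holding beta cell identity and for the age-related fall in beta cell division.

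The control library held 16285876 estimated counts after rounding and the AE library 21278503, which was 1.31-fold more. Hormone genes showed both to be islet RNA: the summed level of 10 beta cell markers, in CPM (counts scaled to the same total in each library), differed by a ratio of 1.00 (AE over control). Insulin transcripts dominate that sum, and 8 of the 10 markers were lower in AE, all with counting intervals below equality (median log2 ratio -0.10; Slc2a2 -0.28, Nkx6-1 -0.26). The sum of 6 alpha cell markers was 1.35-fold higher in AE. Gcg made up most of it (16034 and 21996 CPM), and 3 of the 6 had intervals above equality (median log2 ratio 0.15). Other cells moved too. All 5 leukocyte markers were higher in the AE library (sum 19.1 and 56.3 CPM), as were all 9 B cell markers (15.4 and 381.0 CPM), the 7 T cell markers in sum (0.920 and 7.20 CPM), 8 of 9 mesenchymal markers (median log2 ratio 0.98), and all 18 tested proliferation genes (sum of the 19 listed 104.0 and 149.5 CPM). The 7 tested acinar markers were lower (sum ratio 0.740 over 9 markers), and 16 of 17 tested immediate early genes were lower (sum ratio 0.519 over 18). In bulk islets, fewer cells of one type and less RNA per cell cannot be told apart.

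Levels were compared between genes per length, in TPM, which scales counts per kb of exon to the same total in each library. The median member had 15.1 TPM against 10.95 TPM over all genes that averaged 10 counts or more, and 36 of the 54 members lay above that all-gene median. In counts, 30 members had a mean of at least 1000, 18 had 100 to under 1000, 5 had 10 to under 100, and 1 had fewer than 10. The order of levels hardly differed between the libraries (Spearman 0.991 across the 54 genes, which share their lengths in both). The same gene led 9 of 10 enzyme classes in either library.

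**Figure D1:**
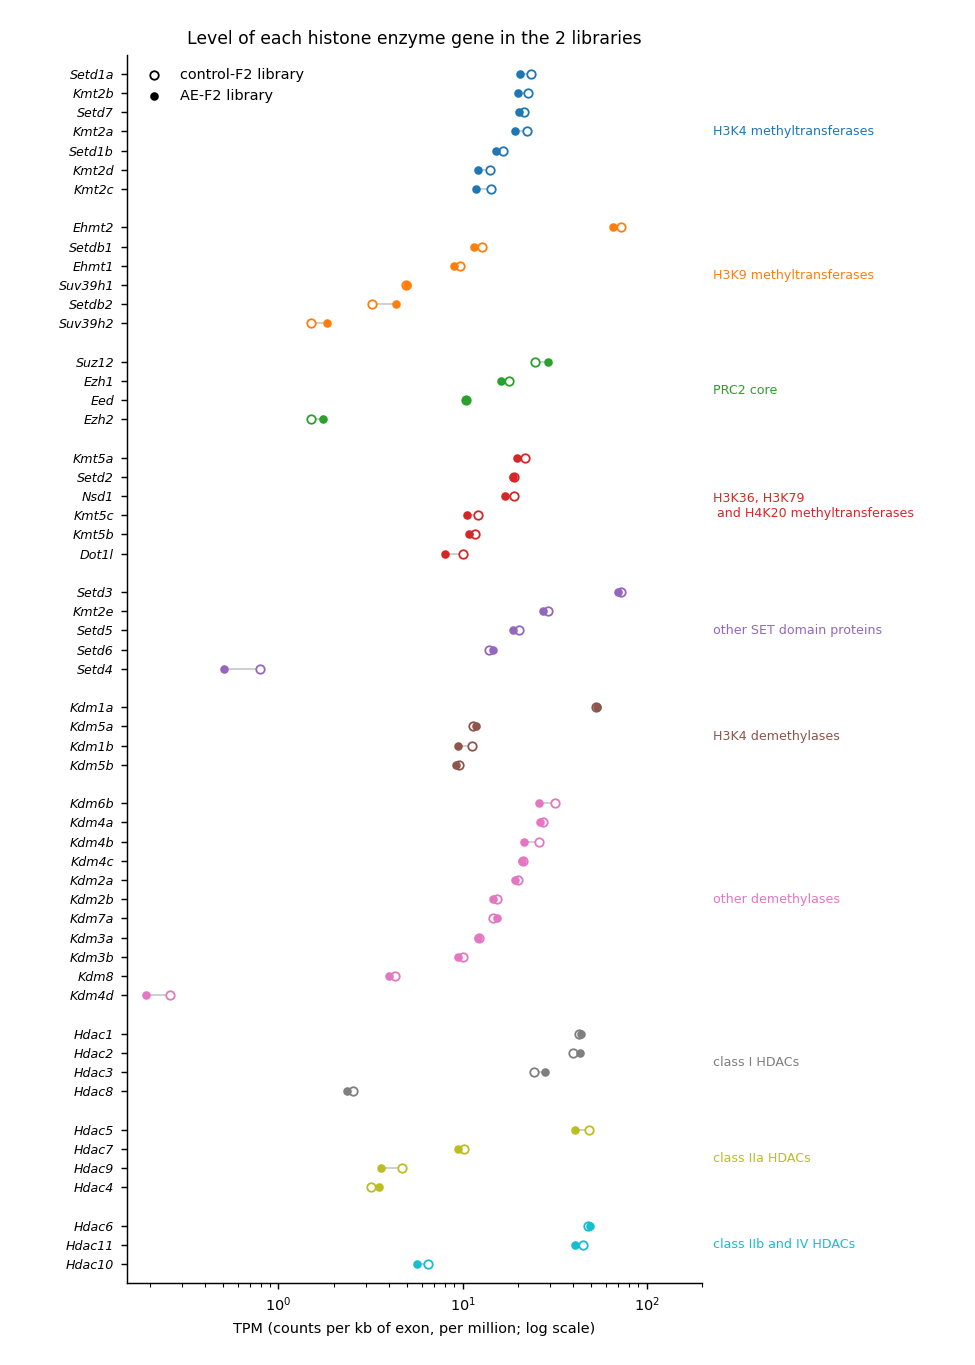
TPM of each of the 54 genes on a log axis, grouped by class, in the control-F2 library (open circles) and the AE-F2 library (filled circles), 1 library each. The circles of a gene nearly coincide along most of the range, from Setd3 at 72.8 and 69.7 TPM down to Kdm4d at 0.257 and 0.191 TPM, and the widest gaps belong to genes with few counts such as Setd4.

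Setd3, which methylates actin rather than a histone, was the most abundant member, with 72.8 TPM in control and 69.7 TPM in AE. Ehmt2 (G9a), the main enzyme of H3K9 dimethylation, came next with 72.8 and 66.0 TPM, so the order of these neighbours was within the difference between the libraries. Kdm1a (LSD1), the H3K4 demethylase of the CoREST complex, followed at 53.4 and 53.5 TPM. Hdac6, Hdac5, Hdac1, Hdac11 and Hdac2 had mean values from 49.0 down to 41.7 TPM. The values of each of these 5 in the libraries overlapped those of its neighbour, so they formed a level band without a firm order. HDACs were thus 5 of the 8 highest members. At the other end stood Suv39h2 (1.67 TPM on average), Ezh2 (1.62 TPM), Setd4 (0.651 TPM) and Kdm4d, which had 5 counts in each library and was not compared. When the longest transcript was taken as the length instead of all exons, the leading gene was unchanged in 7 of 10 classes, and Setd3, Ehmt2 and Kdm1a remained the top 3.

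Paralogues differed widely in level. Ezh1, the PRC2 methyltransferase typical of resting cells, had 12.0 times the TPM of Ezh2, its counterpart in dividing cells, in control and 9.26 times in AE. With the longest transcript as the length these were 8.85 and 6.84 times. Suv39h1 exceeded Suv39h2, the other enzyme of heterochromatic H3K9 trimethylation, by 3.27 and 2.70 times, or by 5.43 and 4.48 times with the longest transcript as the length. Hdac5 exceeded Hdac4 by 15.3 and 11.7 times, or by 12.7 and 9.72 times per longest transcript. The paralogous enhancer methyltransferases Kmt2c and Kmt2d were closer, with Kmt2d at 0.986 and 1.02 times Kmt2c per exon length, and at 0.732 and 0.757 times per longest transcript. Hdac2 was at 0.922 and 0.985 times Hdac1, and at 0.751 and 0.802 times per longest transcript.

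Between the libraries the enzymes differed little. The log2 ratio (AE over control, after TMM scaling) had a median of -0.06 over the 53 genes, against 0.00 over all 13627 tested genes and -0.01 over the 10540 that averaged 100 counts or more. The ratio was positive for 18 members and negative for 35 (66.0% lower, against 50.3% of all tested genes and 53.8% of those averaging 100 counts or more). No member reached 2-fold in either direction, a size passed by 3.82% of all genes, and 49 of 53 were neither 25% higher nor 20% lower. The median absolute log2 ratio was 0.10 for the members and 0.12 for all genes (0.10 with at least 100 counts). Setdb2 and Suv39h2 were at least 25% higher in AE (2 of 53, 3.77%, against 11.3% of all genes), and Setd4 and Hdac9 at least 20% lower (2 of 53, 3.77%, against 6.92%). With at least 100 counts, 1 of 48 members was higher and 1 of 48 lower by these sizes, against 3.67% and 3.94% of all such genes.

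The second reading used the 95% Clopper-Pearson interval of each ratio, which covers counting error only and treats reads as independent molecules, which PCR copies are not. This interval lay above equality for 4 members (7.55%, against 13.2% of all genes and 12.0% of those with at least 100 counts). These were Suz12, Setdb2, Hdac2 and Hdac3. It lay below equality for 13 members (24.5%, against 13.7% and 16.4%), namely Kmt2a, Kmt2b, Kmt2c, Kmt2d, Setd1a, Ehmt2, Nsd1, Dot1l, Kdm1b, Kdm4b, Kdm6b, Hdac5 and Hdac9. These shares are at unlike depth, and intervals narrow as counts rise. The median member averaged 1181 counts, against 405 over all tested genes and 613.5 over those with at least 100.

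**Figure D2:**
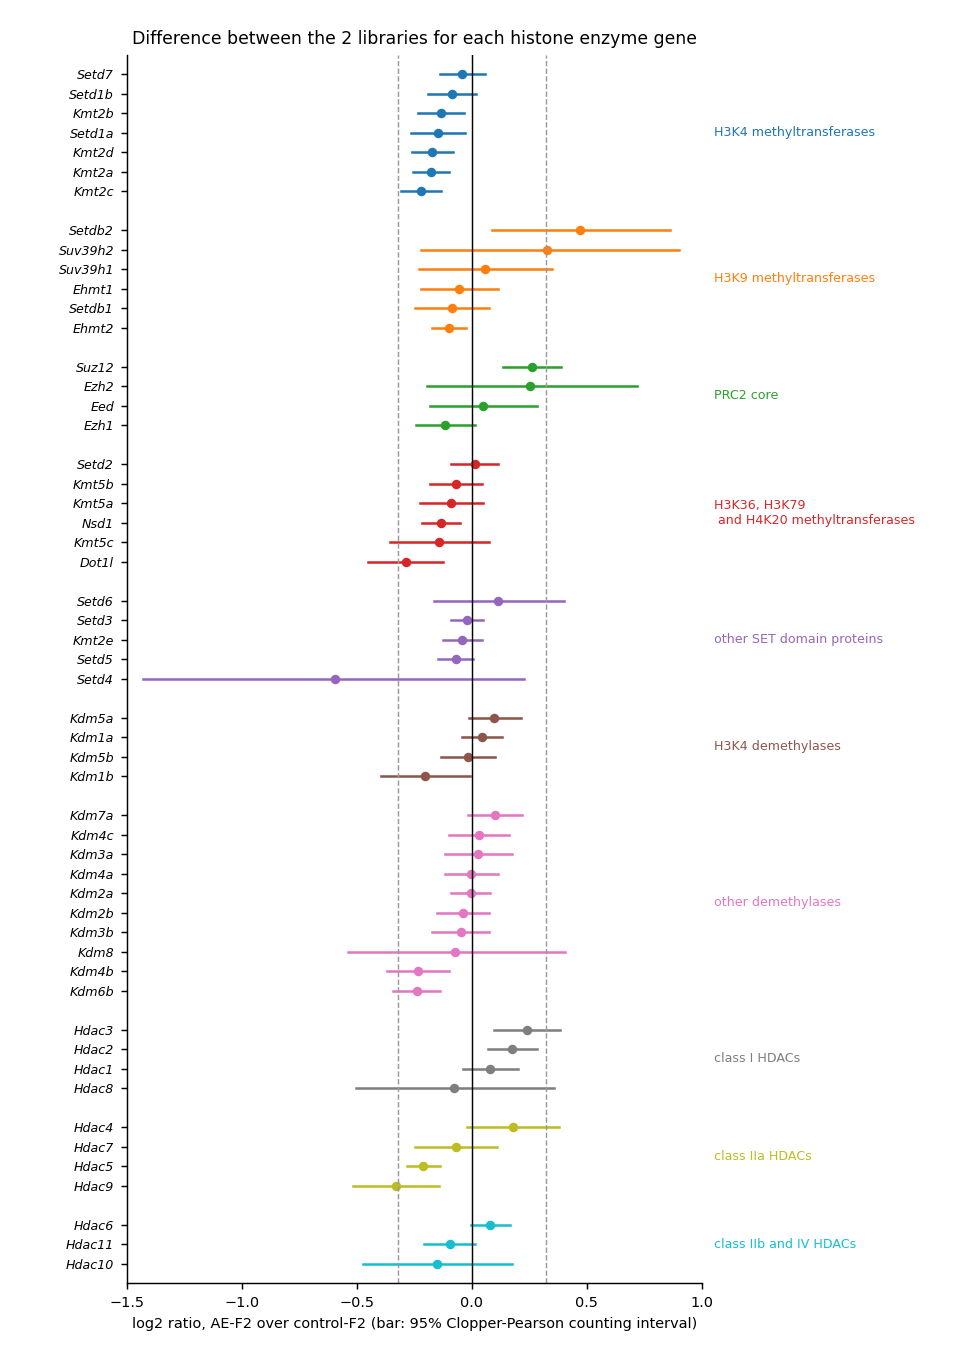
Log2 ratio, AE-F2 over control-F2, of the 53 tested genes (points) with 95% Clopper-Pearson counting intervals (bars), by class; dashed lines mark 25% higher and 20% lower, and the solid line equality. Points crowd around equality, the H3K4 methyltransferases all lie to its left, and only Suz12, Setdb2, Hdac2 and Hdac3 have bars wholly to its right.

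The direction of the ratios went with base composition. Across all 13609 tested genes with a known GC content, the log2 ratio had a Spearman correlation of -0.17 with the GC content of the longest transcript. The correlation was -0.23 across the 10526 of them averaging 100 counts or more, and -0.53 across the 53 members (Pearson -0.49), which share the 2 libraries. In the highest quintile of GC (55.6 to 74.7%), all 13 members had negative ratios, with a median of -0.15 (all genes there -0.06). In the lowest quintile (31.0 to 43.8%), 7 of 8 members had positive ratios, with a median of 0.14 (all genes 0.04). When the trends with GC content and exon length over all genes were removed, the members split into 26 positive and 27 negative ratios with a median of -0.01. The interval then lay above equality for 7 of 53 (13.2%, against 13.2% of all genes) and below for 9 of 53 (17.0%, against 11.2%). Of the 10526 genes averaging 100 counts or more, 1266 had such intervals above equality and 1390 below. All 4 of the higher members and 9 of the 13 lower ones kept their call, and the 3 that joined the higher side were Hdac4, Hdac6 and Kdm5a.

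**Figure D3:**
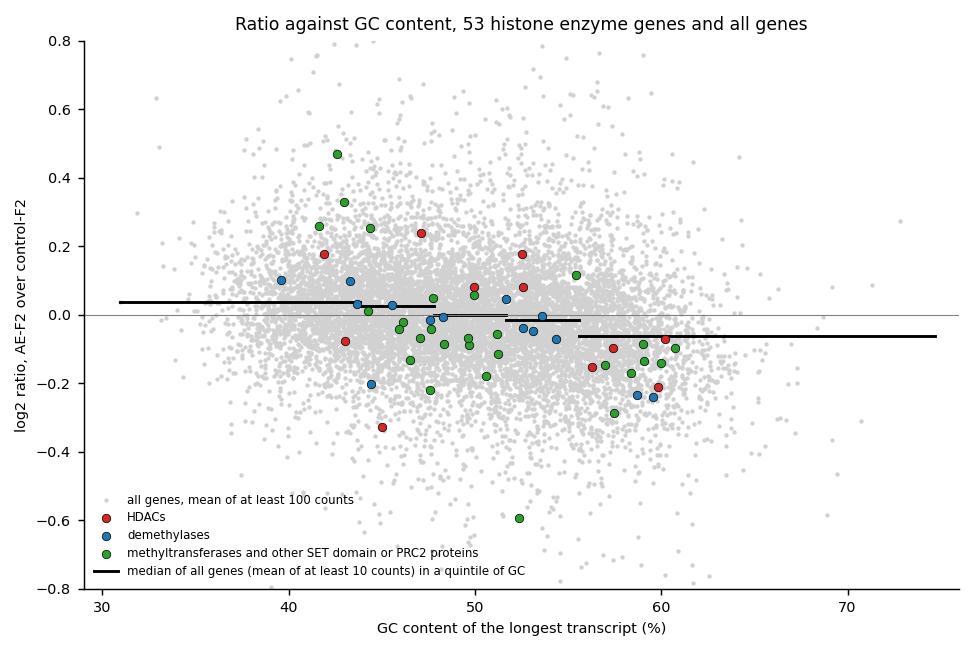
Log2 ratio, AE-F2 over control-F2, against GC content (%) of the longest transcript for the 53 tested genes, coloured by enzyme family, over all genes averaging 100 counts or more (grey; the vertical axis is cut at 0.8). Black bars give the all-gene median in each quintile of GC, sloping from 0.04 to -0.06, and the coloured points slope the same way.

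H3K4 methyltransferases comprise the 6 COMPASS-type enzymes, Kmt2a to Kmt2d, Setd1a and Setd1b, and the monomethyltransferase Setd7. All 7 had negative ratios, with a median of -0.15 and a range from -0.22 to -0.04, and 5 of 7 had an interval below equality (of all genes, 50.3% had negative ratios and 13.7% such intervals). Kmt2c (MLL3), one of the enhancer monomethyltransferases, had 120.3 CPM (1961 counts) in control and 103.2 CPM (2194 counts) in AE, a log2 ratio of -0.22 (interval -0.31 to -0.13). Kmt2a (MLL1), known for keeping Hox genes active, had 156.3 CPM (2547 counts) and 138.1 CPM (2936 counts), a log2 ratio of -0.18 (-0.26 to -0.10). Setd1a, one of the enzymes of broad promoter H3K4 trimethylation and the most abundant of the class per exon length, though not per longest transcript, had 66.6 CPM (1085 counts) and 60.1 CPM (1277 counts), a log2 ratio of -0.15 (-0.27 to -0.03). Each of these genes was thus 1.11- to 1.17-fold lower in the AE library. Kmt2d stood at -0.17 and Kmt2b at -0.14, and Setd1b (-0.09) and Setd7 (-0.04) had intervals that included equality. This class had the highest median GC content of the 10, 57.0%. With GC and length removed its median was -0.04, and of the 5 only Kmt2a (-0.12) and Kmt2c (-0.17) kept an interval below equality. Most beta cell markers and the tested acinar markers were also lower in the AE library, and their part in these values was not tested.

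Among the 6 H3K9 methyltransferases, 3 ratios were positive and 3 negative, with a median of 0.00 (4 and 2, median 0.04, with GC and length removed). Setdb2, which belongs to the same subfamily as the retroelement silencer Setdb1, had 5.46 CPM (89 counts) in control and 7.57 CPM (161 counts) in AE. Its log2 ratio of 0.47 (0.09 to 0.86) was the largest positive one among all members, at percentile 92.2 of all tested genes. Suv39h2 had 45 and 74 counts and a log2 ratio of 0.33 (-0.22 to 0.90), so its difference was within counting error. Ehmt2 had 166.5 CPM (2714 counts) in control and 155.5 CPM (3306 counts) in AE, a log2 ratio of -0.10 (-0.17 to -0.03). With GC and length removed its ratio was 0.00 (-0.07 to 0.08), and at 60.8% it had the highest GC content of the members. Its partner Ehmt1 (GLP), the repressor Setdb1 and Suv39h1 had ratios of -0.06, -0.09 and 0.06, all with intervals that included equality.

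The 4 PRC2 core genes had 3 positive ratios and a median of 0.15, or 0.05 over the 3 that averaged 100 counts or more. Suz12, the scaffold subunit, carried the clearest difference of the class, with 51.4 CPM (837 counts) in control and 61.5 CPM (1308 counts) in AE. Its log2 ratio was 0.26 (0.13 to 0.39), and 0.23 (0.11 to 0.36) with GC and length removed. Ezh2, the catalytic subunit, had only 4.17 CPM (68 counts) and 4.99 CPM (106 counts), and its log2 ratio of 0.25 had an interval from -0.20 to 0.72. Ezh1 pointed the other way, with 55.7 CPM (908 counts) and 51.5 CPM (1094 counts), a log2 ratio of -0.11 (-0.24 to 0.01). Eed, the subunit that reads trimethylated H3K27, had 16.6 CPM (271 counts) and 17.2 CPM (366 counts), a log2 ratio of 0.05 (-0.18 to 0.28). Suz12 was therefore the only core subunit set apart by counting error. Beside the low-count Ezh2, Suv39h2 and Setdb2, the proliferation genes, of which 14 of 18 had intervals above equality, and the leukocyte and B cell markers were also higher in the AE library, and their part in these values was not tested.

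Of the 6 methyltransferases of H3K36, H3K79 and H4K20, 5 had negative ratios (median -0.11, and -0.07 with GC and length removed). Dot1l, the sole H3K79 methyltransferase, had 36.6 CPM (596 counts) in control and 30.0 CPM (637 counts) in AE, a log2 ratio of -0.29 (-0.45 to -0.12) that remained at -0.20 (-0.37 to -0.04) with GC and length removed. Nsd1, an H3K36 dimethyltransferase, had 2271 and 2700 counts and a log2 ratio of -0.13 (-0.21 to -0.05). Kmt5a, the H4K20 monomethyltransferase and the most abundant of the class per length, had 48.2 CPM (786 counts) and 45.3 CPM (964 counts), a log2 ratio of -0.09 (-0.23 to 0.05). Setd2, the enzyme of H3K36 trimethylation, was nearly level at 0.01, and Kmt5b (-0.07) and Kmt5c (-0.14), which extend H4K20 methylation, had intervals that included equality.

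The other 5 SET domain proteins had no interval apart from equality. Setd3 had 183.3 CPM (2987 counts) and 180.5 CPM (3838 counts), a log2 ratio of -0.02 (-0.09 to 0.05), which at this depth bounds its difference narrowly. Setd6, which methylates the NF-kB subunit RelA, had 11.1 CPM (181 counts) and 12.0 CPM (256 counts), a log2 ratio of 0.12 (-0.16 to 0.40). Setd5 and Kmt2e stood at -0.07 and -0.04. Setd4 had the largest absolute ratio of all members, -0.59, but on 29 and 25 counts, and its interval from -1.43 to 0.22 shows that a difference of that size was not detectable at this depth.

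The demethylases lay near equality by their medians. The 4 H3K4 demethylases had a median of 0.01 and the 10 tested enzymes with other targets one of -0.02, which became 0.05 and 0.02 with GC and length removed. Kdm1a had 115.3 CPM (1879 counts) in control and 118.9 CPM (2528 counts) in AE, a log2 ratio of 0.04 (-0.04 to 0.13). Kdm5a, a Jumonji H3K4 demethylase, had 67.3 CPM (1097 counts) and 72.1 CPM (1532 counts), a log2 ratio of 0.10 (-0.01 to 0.21). Its paralogue Kdm5b stood at -0.02. Kdm1b (LSD2) had 25.6 CPM (418 counts) and 22.3 CPM (474 counts), a log2 ratio of -0.20 (-0.39 to -0.01). Kdm1b shares 505 exon bases with Dek on the opposite strand, and both have estimated counts that are not whole numbers, so reads were divided between them. Dek had a log2 ratio of 0.27 (0.13 to 0.41), and the value of Kdm1b is uncertain to that extent. Its interval also reached equality when the libraries were scaled without the 10 most abundant genes (log2 ratio -0.18).

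Kdm6b and Kdm4b, both Jumonji enzymes, stood apart on the lower side. Kdm6b (JMJD3), which removes H3K27 methylation laid down by PRC2, had 91.8 CPM (1497 counts) in control and 77.7 CPM (1653 counts) in AE, a log2 ratio of -0.24 (-0.34 to -0.14), and -0.14 (-0.24 to -0.04) with GC and length removed. Kdm4b, an H3K9 demethylase, had 53.1 CPM (866 counts) and 45.2 CPM (960 counts), a log2 ratio of -0.23 (-0.37 to -0.10), and -0.16 (-0.30 to -0.03) with those trends removed. Kdm6b is known as a gene induced by stimulation, and beside it the immediate early genes were lower in the AE library, with a median log2 ratio of -0.76 over 17 genes and the highest counts in Fos (18615 and 12218) and Jun (15766 and 13068). Their part in the Kdm6b value was not tested. Kdm7a, which acts on H3K9 and H3K27, was the highest of this class by ratio, with 61.7 CPM (1006 counts) and 66.2 CPM (1408 counts), a log2 ratio of 0.10 (-0.02 to 0.22). The remaining tested genes, Kdm2a, Kdm2b, Kdm3a, Kdm3b, Kdm4a, Kdm4c and Kdm8, ranged from -0.07 to 0.03 and all had intervals that included equality.

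Of the 4 class I HDACs, most of them catalytic subunits of nuclear corepressors, 3 had positive ratios (median 0.13, and 0.11 with GC and length removed). Their summed level was 182.4 CPM in control and 202.8 CPM in AE, a ratio of 1.11 (counting interval 1.06 to 1.17). Hdac3, the enzyme of the NCoR and SMRT complexes, had 41.2 CPM (672 counts) and 48.7 CPM (1035 counts), a log2 ratio of 0.24 (0.10 to 0.38). Hdac2 had 74.1 CPM (1208 counts) and 83.8 CPM (1781 counts), a log2 ratio of 0.18 (0.07 to 0.28). Both kept their intervals above equality with GC and length removed (0.22 and 0.14). Hdac1, which pairs with Hdac2 in the Sin3, NuRD and CoREST complexes, had 61.9 CPM (1009 counts) and 65.5 CPM (1392 counts), a log2 ratio of 0.08 (-0.04 to 0.20). Hdac8, which works outside these complexes, had 5.15 CPM (84 counts) and 4.89 CPM (104 counts), a log2 ratio of -0.08 (-0.50 to 0.36). The leukocyte, B cell and proliferation markers were also higher in the AE library, and their part in the class I values was not tested.

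Of the 4 class IIa HDACs, 3 had negative ratios (median -0.14), and with GC and length removed 2 were negative and 2 positive (median -0.03). Their sum was 257.0 CPM in control and 228.3 CPM in AE, a ratio of 0.888 (0.852 to 0.926). Hdac5 made up most of it, with 178.6 CPM (2911 counts) and 154.3 CPM (3281 counts), a log2 ratio of -0.21 (-0.28 to -0.14), and -0.10 (-0.17 to -0.03) with GC and length removed. Hdac9, a paralogue known to restrain beta cell mass, had 28.6 CPM (466 counts) and 22.8 CPM (484 counts), a log2 ratio of -0.33 (-0.52 to -0.14). Its value hardly changed with the trends removed, -0.30 (-0.49 to -0.12), and it stood at percentile 6.68 of all tested genes. Hdac4 pointed the opposite way, with 21.04 CPM (343 counts) and 23.8 CPM (506 counts), a log2 ratio of 0.18 (-0.02 to 0.38), and 0.25 (0.05 to 0.45) with the trends removed. It shares 3536 exon bases with Gm26720 on the opposite strand. Hdac7 had 28.8 CPM (469 counts) and 27.4 CPM (583 counts), a log2 ratio of -0.07 (-0.25 to 0.11), and 0.04 (-0.14 to 0.22) with the trends removed. Most beta cell markers, the tested acinar markers and most immediate early genes were also lower in the AE library. Their part in the class IIa values was not tested.

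The remaining HDACs all had intervals that included equality. Hdac6, the cytoplasmic tubulin deacetylase, had 117.2 CPM (1910 counts) and 123.8 CPM (2633 counts), a log2 ratio of 0.08 (-0.01 to 0.17). Hdac11, the single class IV enzyme, had 72.1 CPM (1175 counts) and 67.4 CPM (1433 counts), a log2 ratio of -0.10 (-0.21 to 0.02). Hdac10, a polyamine deacetylase, had 9.14 CPM (149 counts) and 8.23 CPM (175 counts), a log2 ratio of -0.15 (-0.47 to 0.17). Over all 11 HDACs the sum was 637.8 CPM in control and 630.6 CPM in AE, a ratio of 0.989 (0.964 to 1.01), with the higher class I sum and the lower class IIa sum adding up to little difference.

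The promoters of Setdb2 and Hdac9, the members with the largest ratio in each direction among those averaging 100 counts or more, are shown to set their sequence beside these values. They are the 250 bases before the annotated start in RefSeq (GRCm38.p6), all on the minus strand and printed 5′ to 3′ along the gene. Capitals mark matches to CCAAT (the NF-Y box, on either strand, so also ATTGG) and to TTTGAA (the cell cycle gene homology region, CHR). The Setdb2 window is chr14:59440881-59441130, and the Hdac9 windows are chr12:34917096-34917345 for one start and chr12:34528890-34529139 for another.
Setdb2: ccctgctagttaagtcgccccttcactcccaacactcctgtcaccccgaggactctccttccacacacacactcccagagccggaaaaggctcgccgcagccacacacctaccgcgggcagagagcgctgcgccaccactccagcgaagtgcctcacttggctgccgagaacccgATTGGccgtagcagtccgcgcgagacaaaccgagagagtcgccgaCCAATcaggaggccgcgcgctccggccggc
Hdac9, first window: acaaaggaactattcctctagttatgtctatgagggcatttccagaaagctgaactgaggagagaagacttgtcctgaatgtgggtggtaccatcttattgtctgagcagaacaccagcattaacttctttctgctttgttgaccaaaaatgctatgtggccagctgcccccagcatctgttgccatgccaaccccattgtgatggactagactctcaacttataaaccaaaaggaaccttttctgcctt
Hdac9, second window: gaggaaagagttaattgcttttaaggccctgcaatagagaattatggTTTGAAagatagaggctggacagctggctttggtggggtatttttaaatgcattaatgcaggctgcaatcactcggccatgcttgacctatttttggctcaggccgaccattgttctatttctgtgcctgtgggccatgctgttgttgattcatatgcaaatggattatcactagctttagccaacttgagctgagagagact

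The Setdb2 window had a GC content of 65.6%, at percentile 83.8 of all promoter windows, and held CCAAT letters 75 and 30 bases before the start. The Hdac9 windows had 44.4% and 43.6% (percentiles 22.1 and 20.1). The first held none of the motifs searched, and the second held TTTGAA 203 bases before the start. RefSeq promoters were found for 42 of the 54 members, with 58 starts, and were searched on both strands from 250 bases before to 50 after the start. CCAAT was present in 25 of 58 (43.1%, against 37.4% of all 32851 promoters) and TTTGAA in 9 (15.5%, against 17.9%). The cyclic AMP response element TGACGTCA was present in 1 (1.72%, against 1.79%). The E2F motifs TTTCCCGC, TTTCGCGC, TTTGCCGC and TTTGGCGC were present in 4 (6.90%, against 2.26%), the promoters of Ezh2, Suz12, Suv39h1 and Kmt5c. Of these, Suz12 was the only gene whose ratio had an interval above equality. A match describes letters in the window and shows no binding.

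The partners of these enzymes were read from 7 lists of 92 genes, of which 91 were tested. Together they had 32 positive and 59 negative ratios, a median of -0.05, and intervals above equality for 8 and below for 21 (all genes 13.2% and 13.7%). With GC and length removed these counts were 9 and 15 (all genes 13.2% and 11.2%). The PRC2 partners had 6 of 7 positive ratios and a median of 0.10, next to 0.15 for the core. The histone-binding subunit Rbbp4, which also serves HDAC complexes, had the most counts, 2210 in control and 3024 in AE, and a log2 ratio of 0.07 (-0.01 to 0.15). Its paralogue Rbbp7 stood at 0.12 (0.04 to 0.20). The Tudor-domain cofactor Phf1 was the exception, with 1681 and 1889 counts and a log2 ratio of -0.22 (-0.31 to -0.12). In PRC1, the complex that binds H3K27 trimethylation and ubiquitinates H2A, 15 of 18 ratios were negative (median -0.11), with intervals below equality for 5 and above for 0. Cbx6, the gene with the most counts, had 3163 and 3897 counts, a log2 ratio of -0.08 (-0.15 to -0.01), and -0.02 (-0.09 to 0.05) with GC and length removed. The RING1 partner Pcgf1 stood at -0.29 (-0.62 to 0.04), and at -0.34 (-0.67 to -0.01) with the trends removed. With GC and length removed the PRC1 median was -0.10 and that of the PRC2 partners 0.08. The difference between the lists was not tested.

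Of 11 tested subunits that work with H3K4 methyltransferases, 5 were positive and 6 negative, with a median of 0.00 (4 and 7, median -0.01, with GC and length removed). Paxip1, a subunit of the Kmt2c and Kmt2d complexes, had 3231 and 3649 counts and a log2 ratio of -0.21 (-0.28 to -0.14), and was the only one with an interval apart from equality. The HDAC corepressors were split, with 9 positive and 13 negative ratios, a median of -0.04 and 5 intervals on each side (all genes 13.2% above and 13.7% below). With GC and length removed they had 12 positive and 10 negative ratios, a median of 0.02, and 4 intervals above and 2 below equality. The NuRD remodeller Chd4 had the most counts among them, with 5291 and 7631 counts and a log2 ratio of 0.14 (0.09 to 0.20). Sap30, a Sin3 subunit, had the largest ratio, 0.41 (0.00 to 0.83), on 79 and 137 counts, and its interval included equality with GC and length removed (-0.06 to 0.77).

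Sirtuins, the NAD-dependent deacetylases, had 7 of 7 negative ratios (median -0.10), with intervals below equality for 2, Sirt6 and Sirt7. Of all genes, 50.3% were negative and 13.7% had intervals below equality. With GC and length removed all 7 sirtuins were still negative (median -0.11), with intervals below equality for 0 of 7 (all genes 11.2%). Sirt2, which is mostly cytoplasmic, was the most abundant with 1396 and 1700 counts and a log2 ratio of -0.10, and Sirt6, an H3K9 deacetylase, had the largest absolute ratio, -0.32 (-0.59 to -0.04), on 216 and 226 counts. Histone acetyltransferases, which oppose the HDACs, had 4 positive and 6 negative ratios (median -0.06), and 5 of each with GC and length removed (median -0.02). Their intervals lay below equality for 4 of 10 and above for 0, and for 3 and 0 with those trends removed (all genes 13.7% and 11.2% below). Ep300 had 1867 and 2262 counts and a log2 ratio of -0.11 (-0.20 to -0.02), which was -0.05 (-0.14 to 0.04) with GC and length removed. Its paralogue Crebbp had 907 and 960 counts and a log2 ratio of -0.30 (-0.43 to -0.17), and -0.24 (-0.37 to -0.11) with the trends removed. Among 16 other lysine methyltransferases and demethylases, 11 were negative (median -0.06), and 9 with GC and length removed (median -0.03). The H3K36 methyltransferase Nsd3, first by counts, had 2300 and 2762 counts and stood at -0.12 (-0.20 to -0.04), and Riox2 had the largest ratio of those with enough counts, 0.17 (-0.08 to 0.41).

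**Figure D4:**
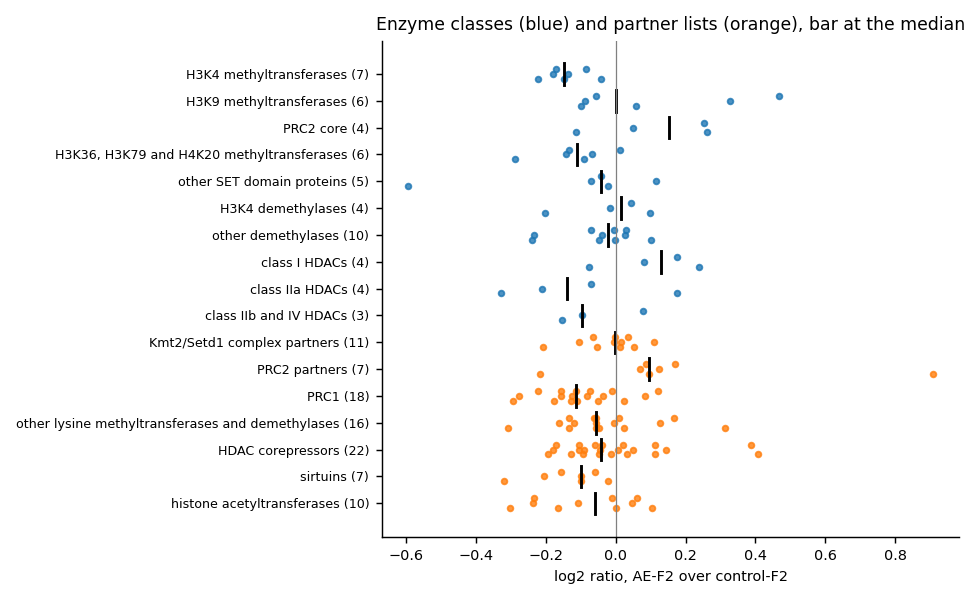
Log2 ratio, AE-F2 over control-F2, of each tested gene in the 10 enzyme classes (blue) and the 7 partner lists (orange), with the number of genes in brackets and a black bar at the median. Medians run from -0.15 for the H3K4 methyltransferases to 0.15 for the PRC2 core, and the point far to the right is Phf19, a PRC2 partner with 14 and 35 counts.

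Overlapping genes bear on some of these values, since the use of strand in the counting is not given in the sources used here. In GENCODE M21, 22 of the 54 members share exon bases with a gene on the opposite strand, 7 of them with a protein-coding one. Setd1a shares 3523 exon bases (51.8% of its exon length) with the protein-coding Gm49388 on the same strand, which was listed at 0 in both libraries. The 4 members with counts that are not whole, Kmt2e, Kdm2b, Kdm5a and Kdm1b, are all among these 7. Over the 31 tested members without such an overlap, 10 ratios were positive and 21 negative, with a median of -0.07, and the interval was above equality for 3 and below for 8 (all genes 13.2% and 13.7%).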

How the data were processed

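Islet RNA-seq files of 1 control-F2 and 1 AE-F2 library were used. The labels name 5 further samples that were not analysed here. The deposited values are estimated counts per Ensembl gene, and per the labels the authors' processing notes name Bowtie2, RSEM and DESeq2, while the study's methods name HISAT2. Genome build, annotation and strand setting are not given in the sources used here. Of all values, 8.56% in control and 9.28% in AE were not whole, which RSEM produces when it divides reads among genes. These counts were rounded, giving 16285876 and 21278503 per library, so the lowest members carry wide intervals. Genes were named and their exon lengths and GC content taken from GENCODE M21 (93 genes had no symbol there).

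Libraries were scaled by TMM (edgeR 4.0.16). The log2 ratio, AE over control, used a pseudocount of 0.5 and only genes that averaged 10 counts or more, with 95% Clopper-Pearson intervals (scipy 1.17.1) for counting error only. With 1 library analysed per group no test was run. The interval calculation was run on simulated counts with counting noise only, the noise it assumes. That run cannot speak to PCR copies or to differences between animals. The members and lists were chosen with earlier results of these data known. Full values were given for the PRC2 core, all HDACs, the 8 largest ratios in each direction among members averaging 100 counts or more and the most abundant member of each class; per partner list, for the gene with the most counts and the largest ratio at that minimum. Rbbp7, Dek, Phf19, Sirt7, Slc2a2 and Nkx6-1 were named beyond this, after their values were seen. Counts and intervals of Nsd1, Suv39h2 and Setd4 were also given beyond this rule. Alternatives were DESeq2 (1.42.0) and total-count scaling, other count minimums, a pseudocount of 5, Wilson intervals, a 1.5-fold threshold, and lowess removal (span 0.3) of trends with GC content and exon length. Leaving out members that overlap a gene on the opposite strand was added after seeing the data.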

Additional observations from a re-analysis of the deposited data

How the results depend on the processing

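No paired analysis was possible because only 1 library per group was analysed here, with different replicate numbers, and for the same reason no replicate was left out. With the 10 most abundant genes left out of the totals, 1 member was lower by 20% or more (all genes 6.36%) and for 7 the interval lay above equality (all genes 15.4%), against 2 and 4 in the report. At a minimum mean of 100 counts 1 member was higher by 25% or more and 1 lower by 20% or more (all genes 3.67% and 3.94%), and a pseudocount of 5 left 1 higher (all genes 9.55%). At a 1.5-fold threshold 0 were higher and 1 lower (all genes 6.003% and 2.202%). With GC content and exon length trends removed, 1 was higher and 1 lower by the first sizes (all genes 11.1% and 6.67%) and for 7 the interval lay above equality (all genes 13.2%), and Ehmt2 reversed from -0.10 to 0.0032. Without members overlapping an opposite-strand gene, an alternative chosen after seeing the data, 1 was higher, 1 lower and 8 had an interval below equality (all genes 11.3%, 6.92% and 13.7%), on 31 members tested in place of 53. The median log2 ratio of the members was negative under every alternative run, from -0.07 to -0.01. Of 238 recomputed values of the members with full values, 236 kept their sign, the exceptions being Ehmt2 and Hdac7 with the trends removed. Of 80 recomputed class medians 75 kept it, and the 5 that did not were of the H3K9 methyltransferases and the other demethylases, whose medians were 0.00 and -0.02. Much of this was fixed in advance. Wilson intervals and other count minimums leave the ratio of each member unchanged, and a change of scaling shifts all genes by the same amount. Depth limits the 5 members averaging under 100 counts most: the interval of Setd4 runs from -1.43 to 0.22.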
